A study of Mus musculus with 10 samples.

Results

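The genes described here lie close to Ptgds on mouse chromosome 2. Ptgds encodes lipocalin-type prostaglandin D synthase (L-PGDS), the enzyme deleted in the knockout mice of this series. The members were chosen by position: 45 gene symbols were listed, 43 of which have a place on chromosome 2 in the reference gene table, and every probe set that names 1 of them alone was taken. The array names 40 of the 45 genes through 69 of its 45101 probe sets. Of these, 62 probe sets of 39 genes passed the filter on low values, which asks for a log2 signal above 4 on 4 or more arrays, and were tested among 26504 tested probe sets in all. Edf1, a transcriptional coactivator, is measured only by 4 probe sets that also name a second gene, so it has no value here. Lcnl1, Grin1, Card9 and Exd3 had no probe set with their symbol.

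RNA came from the aorta of male mice labelled C57BL/6, either wild type or Ptgds-/-. The series lists 5 samples of each genotype, called biological replicates. Wild type replicate 2 was excluded by the submitters and holds no values, which leaves 4 wild type arrays (replicates 1, 3, 4 and 5) and 5 knockout arrays (replicates 1 to 5). Age, litter, the deleted exons, the selection cassette and the embryonic stem cells from which the allele was made are not given in the labels. No treatment was applied to either group.

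A targeted allele brings 2 kinds of foreign sequence to a locus. A selection cassette left in place carries a promoter of its own and can raise or lower transcription of the genes beside it. DNA that flanks the deletion can also stay of the embryonic stem cell strain after backcrossing, so that neighbouring genes carry other alleles, and a base difference under a probe alters its signal without any difference in transcript level. Ptgds sits in a dense stretch of chromosome 2 that holds further lipocalin genes, small secreted carriers of lipophilic molecules, among genes of unrelated function. The comparison of wild type with knockout asks here whether transcripts from these neighbours differ beside the loss of Ptgds.

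The promoter windows of Ptgds, of its neighbouring member Lcn12, of Fbxw5, and of the 3 members with the smallest p follow, because a cassette effect would act on such start sites. The sequences are from RefSeq on GRCm38.p6, 250 bases before to 50 after the annotated start, 5′ to 3′ on the gene's strand. They are reference sequence, not that of these mice. CpG dinucleotides are in capitals.
Ptgds, chr2:25469700-25469999, minus strand: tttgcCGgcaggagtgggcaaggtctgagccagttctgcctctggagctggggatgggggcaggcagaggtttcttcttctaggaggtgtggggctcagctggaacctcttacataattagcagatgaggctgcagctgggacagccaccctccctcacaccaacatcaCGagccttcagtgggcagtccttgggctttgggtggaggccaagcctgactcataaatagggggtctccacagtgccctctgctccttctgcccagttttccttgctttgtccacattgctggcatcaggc
Lcn12, chr2:25493862-25494161, minus strand: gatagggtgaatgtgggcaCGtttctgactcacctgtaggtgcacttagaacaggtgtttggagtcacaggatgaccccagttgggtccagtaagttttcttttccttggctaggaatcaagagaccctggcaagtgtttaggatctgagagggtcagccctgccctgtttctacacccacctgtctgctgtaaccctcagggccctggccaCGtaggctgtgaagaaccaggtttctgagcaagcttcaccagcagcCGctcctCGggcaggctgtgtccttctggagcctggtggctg
Fbxw5, chr2:25500500-25500799, plus strand: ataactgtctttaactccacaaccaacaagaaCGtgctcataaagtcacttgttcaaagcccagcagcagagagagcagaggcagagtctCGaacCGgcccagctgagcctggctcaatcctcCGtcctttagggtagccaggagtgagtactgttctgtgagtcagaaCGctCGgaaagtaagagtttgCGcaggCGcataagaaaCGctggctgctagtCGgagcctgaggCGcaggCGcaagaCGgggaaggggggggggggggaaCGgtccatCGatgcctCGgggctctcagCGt
Mamdc4, chr2:25571267-25571566, minus strand: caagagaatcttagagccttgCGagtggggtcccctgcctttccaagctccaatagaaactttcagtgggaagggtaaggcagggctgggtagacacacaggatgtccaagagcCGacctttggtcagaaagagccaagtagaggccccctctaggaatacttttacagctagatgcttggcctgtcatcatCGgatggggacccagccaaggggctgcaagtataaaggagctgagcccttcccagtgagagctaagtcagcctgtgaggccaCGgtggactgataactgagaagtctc
Snapc4, chr2:26380604-26380903, minus strand: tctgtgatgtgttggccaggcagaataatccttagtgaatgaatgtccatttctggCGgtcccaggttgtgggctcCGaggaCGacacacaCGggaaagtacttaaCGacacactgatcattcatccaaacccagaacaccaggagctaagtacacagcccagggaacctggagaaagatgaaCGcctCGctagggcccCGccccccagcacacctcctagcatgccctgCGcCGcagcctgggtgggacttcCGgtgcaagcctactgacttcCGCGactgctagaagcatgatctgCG
Tmem250-ps, chr2:26139494-26139793, minus strand: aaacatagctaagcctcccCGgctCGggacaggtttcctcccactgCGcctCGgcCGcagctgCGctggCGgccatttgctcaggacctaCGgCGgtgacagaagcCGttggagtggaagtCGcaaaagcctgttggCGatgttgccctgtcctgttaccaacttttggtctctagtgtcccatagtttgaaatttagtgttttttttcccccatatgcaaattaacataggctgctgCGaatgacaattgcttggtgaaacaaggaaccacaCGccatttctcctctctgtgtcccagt

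The Ptgds window holds 2 CpG, and 23.3% of the 32851 windows in the table hold as few or fewer. Lcn12 and Mamdc4 hold 4 each, against 17 in Fbxw5 and 14 each in Snapc4 and Tmem250-ps. The median was 7 over all windows and 15 over the 49 windows of the 40 members that have one. The TATA motif TATAAA, searched on both strands, is present in the Mamdc4 window and in 4 of the 49 member windows (8.16%), against 13.6% of all windows. The GC box GGGCGG, searched likewise, is present in the Snapc4 window, in 32 of 49 member windows (65.3%) and in 35.7% of all windows. C8g and Fbxw5 start on opposite strands, and their windows share 257 bases. These matches describe letters in the reference and not measured binding.

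Ptgds itself checked the labels. Probe set 1423859_a_at read 9.11, 10.31, 8.79 and 8.68 in wild type and 3.86, 3.92, 3.76, 3.67 and 4.40 in knockout on the log2 scale, in the order of the replicate numbers, which is kept for all array values. The genotypes are far apart on every array. It fell by 5.30 (SE 0.31; adjusted p 0.0006, limma), and since the knockout mean lies below the filter's limit of 4 this size is imprecise. Probe set 1423860_at averaged 5.93 ± 0.86 in the wild type (SD, n = 4) and 4.13 ± 0.17 in the knockout (SD, n = 5), at an adjusted p of 0.089 in limma. Whether either lies inside the deleted sequence is not given. Median log2 values of the 9 arrays ran from 5.88 to 5.97, and each array's mean correlation with the rest was 0.990 to 0.992, except 0.983 for wild type replicate 3. Smooth muscle markers were above the filter's limit in 7 of 7 cases, with mean levels of 12.73 to 12.99 (wild type) and 12.97 to 13.04 (knockout). Endothelial markers (5 of 5 above it) had mean levels of 8.82 to 9.41 and 8.57 to 8.91, and adipocyte markers (6 of 8 on the array, 6 of 6 above it) 10.58 to 11.13 and 9.81 to 10.94. Sympathetic neuron markers (6 of 6 above it) ranged widely, from 5.27 to 11.32 in wild type, where replicate 3 was highest, and from 5.26 to 9.58 in knockout. Skeletal muscle markers (3 of 4 above it) stood at 9.95 on knockout replicate 3 and at 4.12 to 4.71 on the others, brown adipocyte markers (3 of 3) at 10.00 to 11.22 in wild type and 9.20 to 10.25 in knockout, and cardiac markers (3 of 3) at 5.30 to 9.91 and 5.79 to 8.91. With the adipocyte marker level as a covariate 0 members passed the adjusted threshold, 7 had an unadjusted p under 0.05 (11.3%, against 12.0% of all), and their median change was 0.051. The part of the other markers in the results was not tested.

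Next to the loss of Ptgds, 0 of the 62 member probe sets passed an adjusted p of 0.05 (limma). Of all tested probe sets 0.0792% passed, so a count of 0 among 62 is near the background. At an unadjusted p under 0.05 there were 9 member probe sets (14.5%) against 18.9% of all. Of the 9, 6 were higher in the knockout (background 10.5%) and 3 lower (background 8.38%). With a trended and robust prior 0 passed the adjusted threshold, and 11 had an unadjusted p under 0.05 (17.7%, against 19.6% of all in that fit). Over the alternatives the share of members under 0.05 lay below that of all in some and above it in others. It was 11.3% against 16.8% without knockout replicate 1, and 23.1% against 19.9% with the brightest probe set of each gene. With array weights 1 passed the adjusted threshold, Snapc4, where 1.38% of all did. The changes ran from -0.49 to 0.48 on the log2 scale, and their median was 0.073, while that of all 26504 was 0.011. The median size of a change was 0.123 among the members and 0.125 among all. In 61 of the 62 (98.4%) the 95% interval of the change lay inside a 2-fold difference either way. Of all tested probe sets 94.1% did so. Inside 1.5-fold were 54 (87.1%), against 77.6% of all. These are intervals of single probe sets, not adjusted for their number. The exception at 2-fold was Nrarp.

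**Figure D1:**
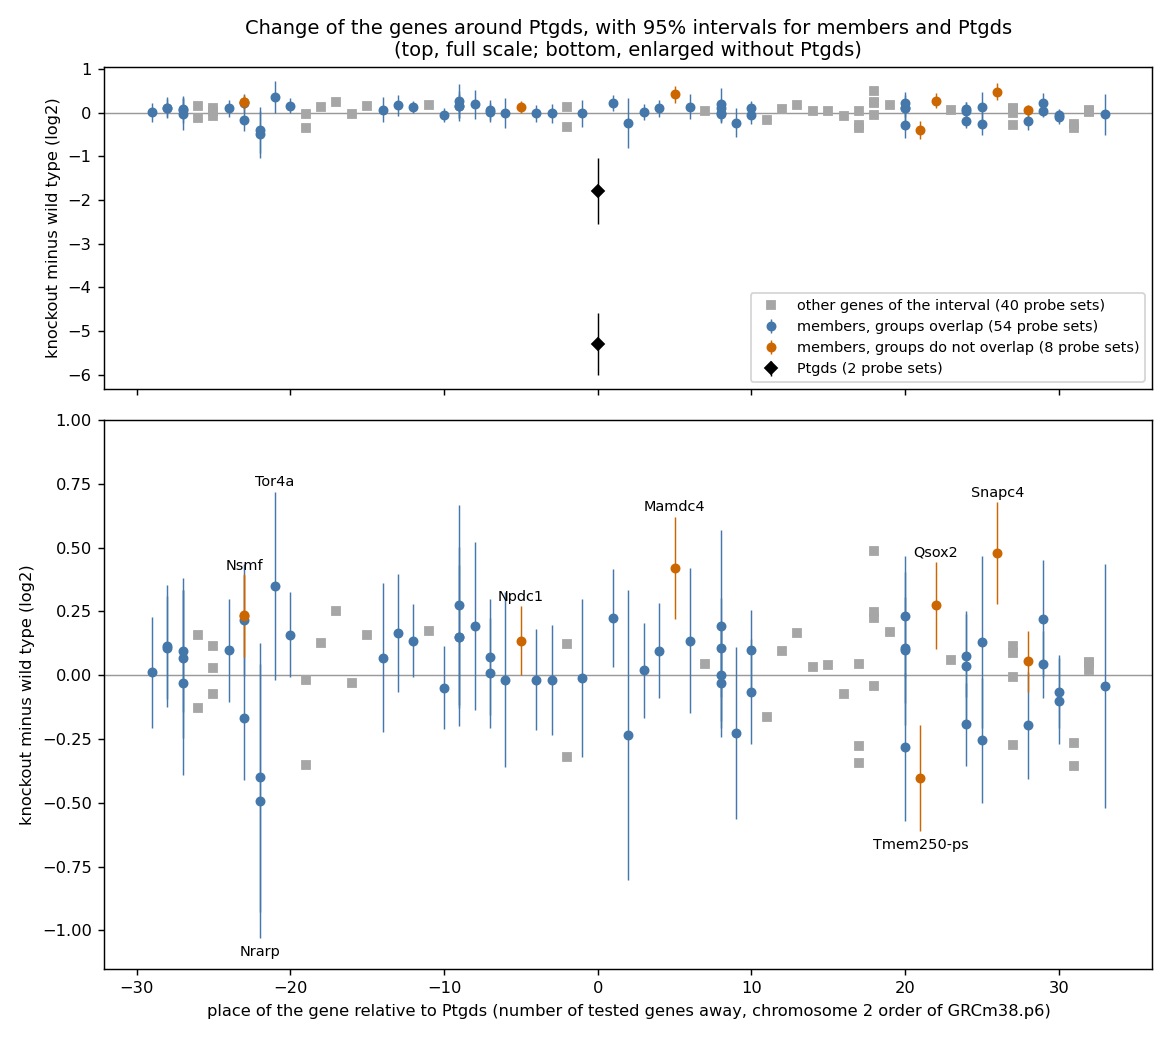
Change of each probe set (knockout minus wild type, log2) against the place of its gene relative to Ptgds, counted in tested genes; bars are 95% intervals for members and Ptgds, and grey squares are the other genes of the interval. The 2 Ptgds probe sets stand at -5.30 and -1.80, while all members lie between -0.49 and 0.48 on both sides.

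The values of 8 member probe sets did not overlap between the genotypes, 12.9% of the 62 against 6.42% of all tested probe sets. 7 of them were higher in the knockout, against a background of 3.8%, and 1 was lower, against 2.62%. They belong to 7 genes: Snapc4, Mamdc4, Qsox2, Npdc1, Nsmf with 2 probe sets, Pmpca and, on the lower side, Tmem250-ps. Of all 62, 40 lay above 0 (64.5%, against 52.7% of all tested). Mamdc4 and Npdc1 are among the 10 nearest tested members, 5 on each side with 1 probe set each, so that 2 of these 10 did not overlap. The 10 divided into 5 above 0 and 5 below, and their median was 0.003. In 10 of 10 the 95% interval lay inside a 2-fold difference, against 94.1% of all tested probe sets. On the Clic3 side of Ptgds the median of 30 probe sets was 0.095, and on the Lcn12 side that of 32 was 0.048. An unadjusted p under 0.05 was found for 2 (6.67%) on the Clic3 side and 7 (21.9%) on the Lcn12 side, against 18.9% of all. Groups did not overlap in 3 (10.0%) and 5 (15.6%). Tmem250-ps, Qsox2, Gpsm1, Dnlz and Snapc4 lie between 21 and 26 tested genes from Ptgds on the Lcn12 side. Mamdc4 lies nearer on that side, and Nsmf and Npdc1 lie on the Clic3 side. No test of the difference between the sides was made.

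Of the genes that flank Ptgds, Clic3 is the nearest tested member on one side. It encodes a chloride intracellular channel family protein. It read 4.98, 5.19, 4.98 and 4.98 on the wild type arrays and 4.72, 4.98, 4.79, 5.21 and 5.39 on the knockout arrays. The knockout values lie on both sides of the wild type values, and the change was -0.012 (95% interval -0.32 to 0.30). Its sign turned under renewed normalization or centring of the arrays.

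Beyond it lie the members Abca2, Fut7, Npdc1 and Entpd2. Paxx, which is no member, lies between Clic3 and Abca2 in the tested order. Its probe set 1455596_a_at had groups apart toward lower values, at -0.32 (adjusted p 0.214, limma), and its other probe set stood at 0.12. Abca2, a lipid transporter of the ABC family, read 6.24, 6.20, 6.03 and 5.84 in wild type and 6.10, 6.06, 6.16, 6.09 and 5.89 in knockout, a change of -0.019 (interval -0.23 to 0.20). Fut7, the fucosyltransferase that builds selectin ligands on leukocytes, read 5.17, 5.20, 5.37 and 5.44 in wild type and 5.15, 5.42, 5.20, 5.21 and 5.41 in knockout, a change of -0.017 (interval -0.22 to 0.18). For both genes the groups cover the same range. Entpd2, an ectonucleotidase that splits extracellular ATP, read 10.90, 10.76, 10.34 and 11.03 in wild type and 10.80, 10.82, 10.93, 10.40 and 10.74 in knockout, with a change of -0.018 (interval -0.36 to 0.33). The signs of these 3 turned when the array medians were set to 0.

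Npdc1, a neural proliferation and differentiation control gene, differs from Abca2, Fut7 and Entpd2 in that its groups do not overlap. It read 9.70, 9.55, 9.60 and 9.59 in wild type and 9.73, 9.74, 9.71, 9.85 and 9.71 in knockout. The gap between the highest wild type and the lowest knockout array is small, and the change was 0.14 (SE 0.060, adjusted p 0.267, limma). The exact permutation p was 0.0079, which no split among the 126 of 4 against 5 arrays can undercut. Here and below, the exact permutation p is adjusted neither for the number of probe sets nor for the choice of members by small p.

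On the other side Lcn12 comes first. It encodes a lipocalin of the same protein family as L-PGDS. It read 4.81, 5.01, 5.14 and 4.97 in wild type and 5.22, 5.15, 5.22, 5.07 and 5.35 in knockout. The knockout arrays lie at or above the upper wild type values, with 1 of them inside the wild type range, and the change was 0.22 (SE 0.085; interval 0.032 to 0.41; adjusted p 0.212, limma). Its level lies near the filter's limit of 4.

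C8g follows, the gamma chain of complement component C8 and itself a lipocalin. It read 5.36, 6.90, 6.19 and 6.42 in wild type and 5.85, 6.03, 6.16, 5.94 and 5.93 in knockout. The wild type arrays spread on both sides of the knockout arrays, with replicate 1 lowest and replicate 3 highest, and the SD was 0.64 in wild type against 0.12 in knockout. The change was -0.23 (interval -0.80 to 0.33), and it was -0.52 without wild type replicate 1 (adjusted p 0.082, limma) and -0.008 without replicate 3. Fbxw5, a substrate receptor of cullin ubiquitin ligases that starts beside C8g on the opposite strand, read 7.70, 7.47, 7.58 and 7.55 in wild type and 7.65, 7.48, 7.79, 7.49 and 7.57 in knockout, a change of 0.019 (interval -0.17 to 0.20).

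Traf2, an adaptor of tumour necrosis factor receptors, read 6.01, 6.05, 6.07 and 6.06 in wild type and 6.08, 6.41, 6.10, 6.08 and 6.03 in knockout. Knockout replicate 2 stands above the others, and the change was 0.096 (interval -0.090 to 0.28), or 0.029 without that array. Mamdc4, which encodes an endosomal membrane glycoprotein of epithelia, is the fifth tested member on this side and the only one of the 10 nearest with a 95% interval that reaches 1.5-fold above 0. It read 6.73, 6.53, 6.71 and 6.51 in wild type and 6.86, 7.16, 6.92, 7.13 and 7.14 in knockout. All knockout arrays lie above all wild type arrays. The change was 0.42 (SE 0.089, 1.34-fold; interval 0.22 to 0.62), with an adjusted p of 0.103 (limma) and an exact permutation p of 0.0079. The adjusted p was 0.033 without wild type replicate 1 and ran from there to 0.347 over the alternatives.

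**Figure D2:**
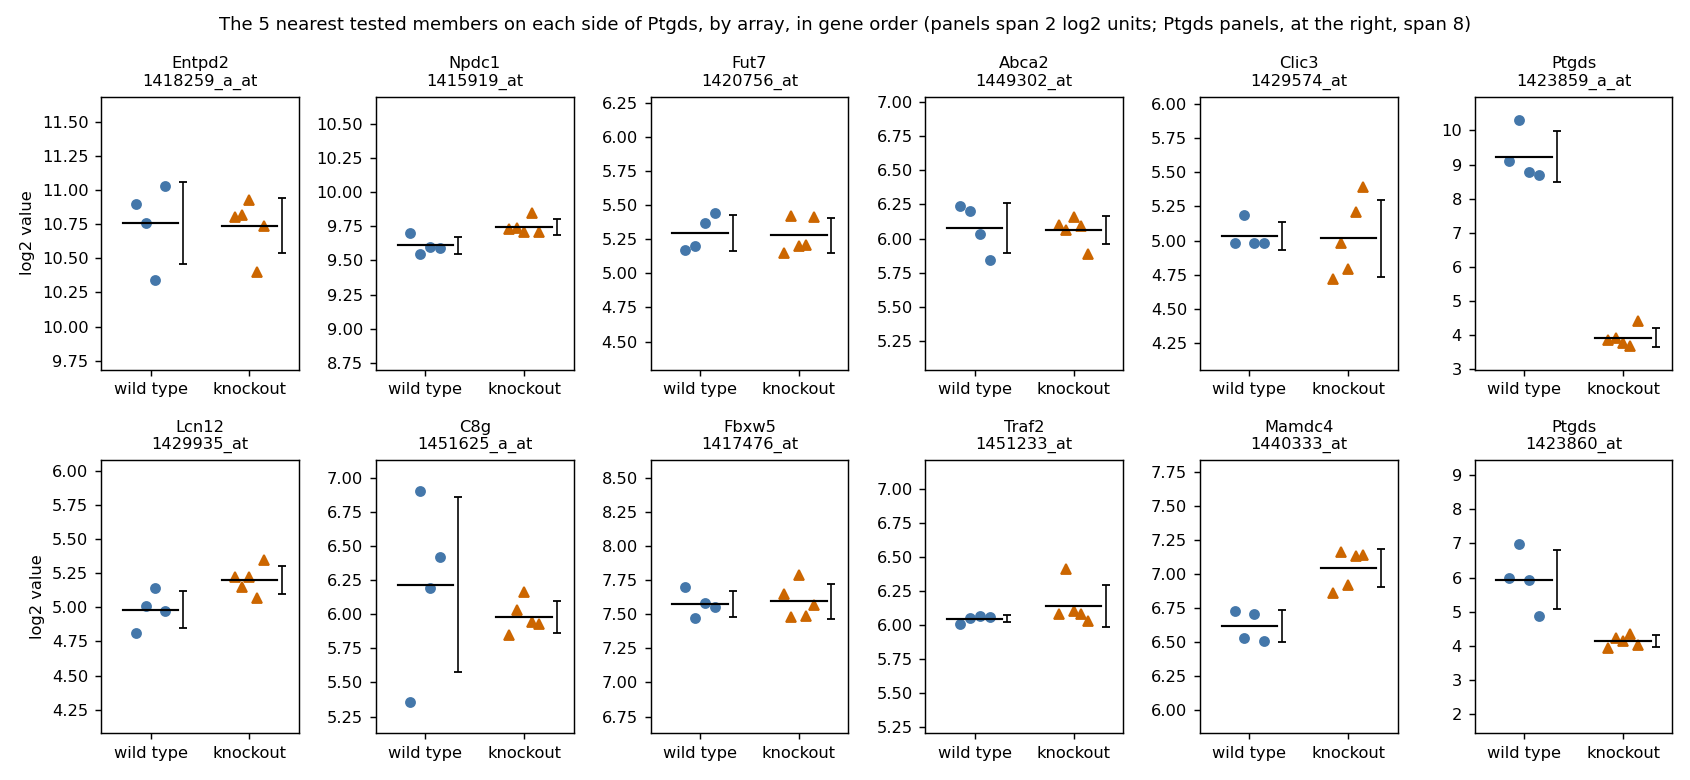
Log2 values by array of the 5 nearest tested members on each side of Ptgds (circles, 4 wild type arrays; triangles, 5 knockout arrays; line, mean; bar, SD), with both Ptgds probe sets at the right on a wider scale. Among the members shown, Mamdc4 and Npdc1 have groups that do not overlap, with mean changes of 0.42 and 0.14.

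Farther out, the member with the smallest p was Snapc4, the large subunit of the complex that starts transcription of small nuclear RNA genes. It lies 26 tested genes from Ptgds on the Lcn12 side. Probe set 1455552_at read 7.30, 7.14, 7.52 and 7.29 in wild type and 7.71, 7.73, 7.71, 7.93 and 7.86 in knockout. The groups are apart on every array. The change was 0.48 (SE 0.089, 1.39-fold; interval 0.28 to 0.68), with an adjusted p of 0.086 (limma) and an exact permutation p of 0.0079. The adjusted p was 0.049 with array weights and 0.034 without wild type replicate 1, and 0.326 at its highest over the alternatives. The other Snapc4 probe set, 1441795_at, lay between 3.56 and 4.23, above 4 on 3 arrays, and was not tested; its mean was 4.01 in wild type and 3.79 in knockout, the opposite sign.

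Tmem250-ps, named by the annotation as a transmembrane protein pseudogene, was the only member whose groups were apart toward lower values. It read 10.93, 10.78, 10.66 and 10.92 in wild type and 10.58, 10.30, 10.56, 10.29 and 10.38 in knockout. The change was -0.40 (SE 0.092, 1.32-fold; interval -0.61 to -0.20), with an adjusted p of 0.111 (limma) and an exact permutation p of 0.0079. Qsox2, a sulfhydryl oxidase of the secretory pathway, lies next to it among the tested genes and went the other way. It read 8.21, 8.07, 8.21 and 8.28 in wild type and 8.61, 8.52, 8.48, 8.34 and 8.39 in knockout, a change of 0.27 (SE 0.075; adjusted p 0.139, limma) with an exact permutation p of 0.0159.

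Nsmf encodes a messenger between synaptic NMDA receptors and the nucleus. It is measured by 4 tested probe sets that do not give 1 answer. Probe set 1449474_a_at read 7.84, 7.69, 7.77 and 7.82 in wild type and 7.94, 7.96, 7.92, 8.13 and 8.12 in knockout, and 1436959_x_at read 11.73, 11.71, 11.59 and 11.68 against 11.78, 11.87, 11.86, 11.97 and 12.06. In both the groups are apart, by 0.23 (SE 0.071; adjusted p 0.152, limma) and 0.24 (SE 0.072; adjusted p 0.154). Another, 1439398_x_at, had a change of 0.22 with overlapping groups, and 1442706_at, at a mean of 5.01 in wild type and 4.85 in knockout, had -0.17 (interval -0.41 to 0.077).

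Gpsm1, a modulator of heterotrimeric G proteins, and Dnlz, a zinc finger partner of mitochondrial HSP70, also had probe sets of opposite sign. For Gpsm1, 1423689_a_at read 7.13, 7.24, 7.25 and 7.38 in wild type and 6.94, 7.00, 7.12, 7.15 and 7.08 in knockout, a change of -0.19 (SE 0.072; adjusted p 0.209, limma) with 1 knockout array inside the wild type range. Its other probe sets stood at 0.075 and 0.036. For Dnlz, 1435528_at read 7.86, 7.46, 7.48 and 7.49 in wild type and 7.10, 7.29, 7.46, 7.46 and 7.28 in knockout, a change of -0.26 (SE 0.11; adjusted p 0.250, limma). Wild type replicate 1 lies apart, and without it the change was -0.16. The other probe set stood at 0.13.

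Inpp5e, Nacc2 and Tor4a complete the 12 members with the smallest p. Inpp5e, a phosphoinositide phosphatase of the primary cilium, read 9.28, 8.92, 9.15 and 8.89 in wild type and 9.20, 9.27, 9.30, 9.16 and 9.48 in knockout on 1423229_at, a change of 0.22 (adjusted p 0.278, limma). Nacc2, a BTB domain transcriptional repressor, read 11.18, 10.86, 11.12 and 10.75 in wild type and 11.35, 11.10, 11.28, 11.08 and 11.23 in knockout on 1429582_at, a change of 0.23 (adjusted p 0.279, limma). In both genes wild type replicates 3 and 5 were the lowest arrays. Replicate 1 lay within the knockout range in both, and replicate 4 did so for Nacc2 but just below it for Inpp5e. Tor4a, of the torsin ATPase family, read 8.03, 7.59, 7.32 and 7.20 in wild type and 7.93, 7.95, 8.08, 7.65 and 7.81 in knockout, a change of 0.35 (SE 0.16; adjusted p 0.286, limma). Only wild type replicate 1 lies among the knockout arrays, and without it the change was 0.52 with an adjusted p of 0.044.

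**Figure D3:**
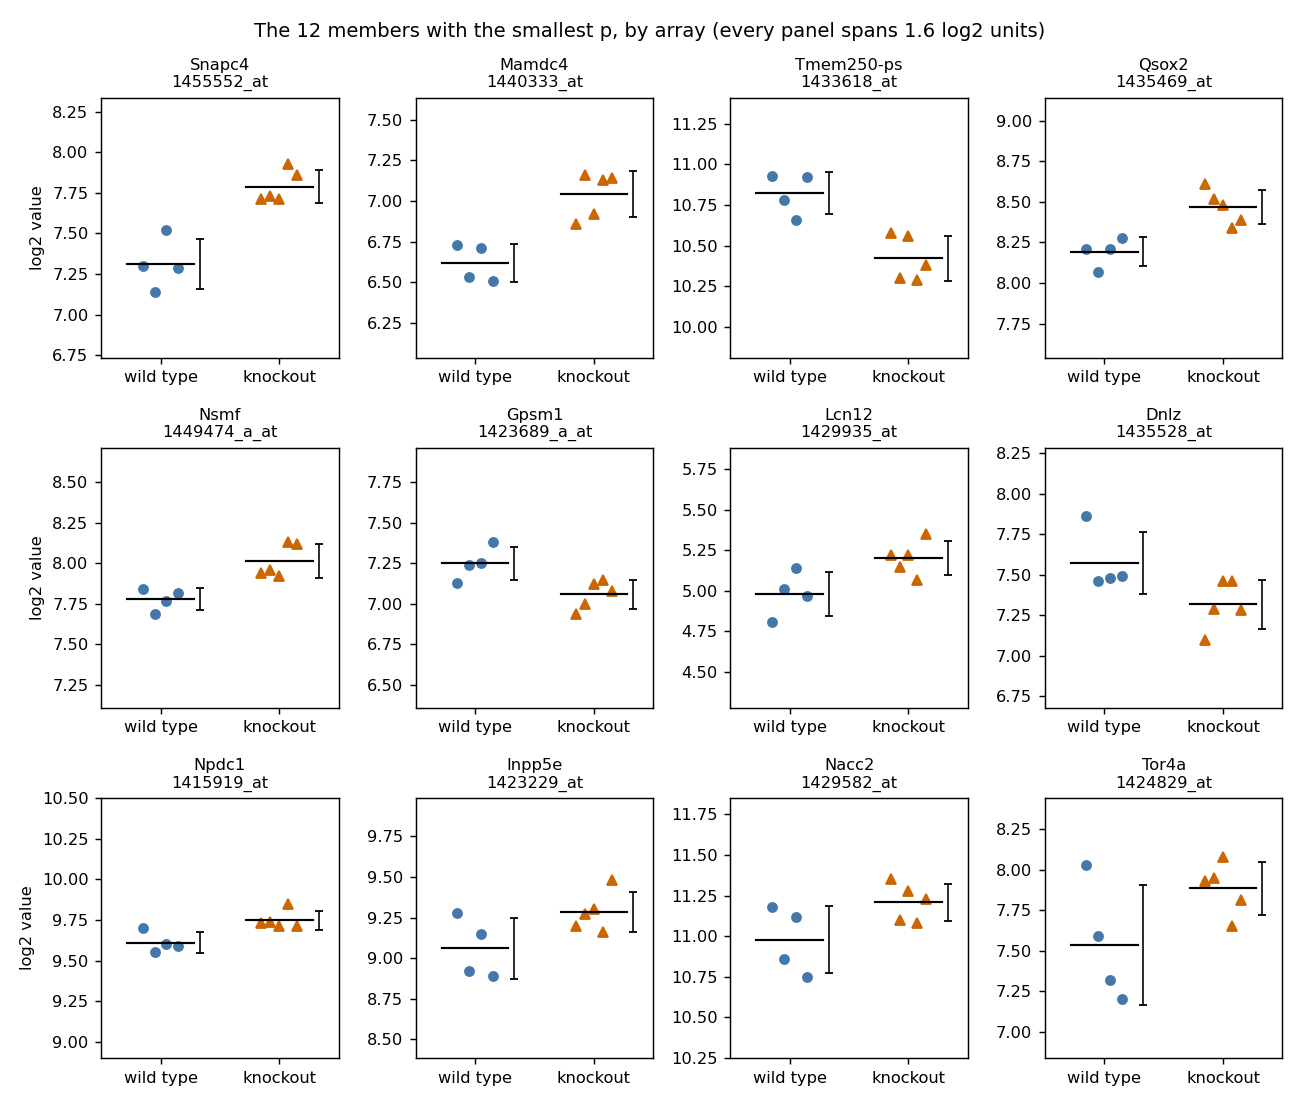
Log2 values by array of the 12 members with the smallest p, 1 probe set each (circles, 4 wild type arrays; triangles, 5 knockout arrays; line, mean; bar, SD), all panels spanning 1.6 log2 units. Groups are apart for Snapc4, Mamdc4, Tmem250-ps, Qsox2, Nsmf and Npdc1 and overlap for the others.

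Several probe sets of 1 gene were tested for 14 members, and in 8 of them the changes had both signs. How often this occurs over all genes with several tested probe sets was not counted. The spread between the probe sets of a gene had a median of 0.17 and reached 0.51 in Nacc2. Its 1417153_at, at means of 5.27 in wild type and 4.99 in knockout, stood at -0.28. Its 1429582_at, at 10.98 and 11.21, stood at 0.23. Pmpca, the alpha subunit of the mitochondrial processing peptidase, stood at -0.20 on 1424661_at and at 0.054 on 1424662_at. The second had groups that did not overlap but met at 11.35, from 11.29 to 11.35 in wild type and from 11.35 to 11.46 in knockout. Probe sets of 1 sign belonged to Arrdc1, Dpp7, Inpp5e, Nrarp, Sapcd2 and Sec16a. Where the probes lie within the transcripts is not given in the files.

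**Figure D4:**
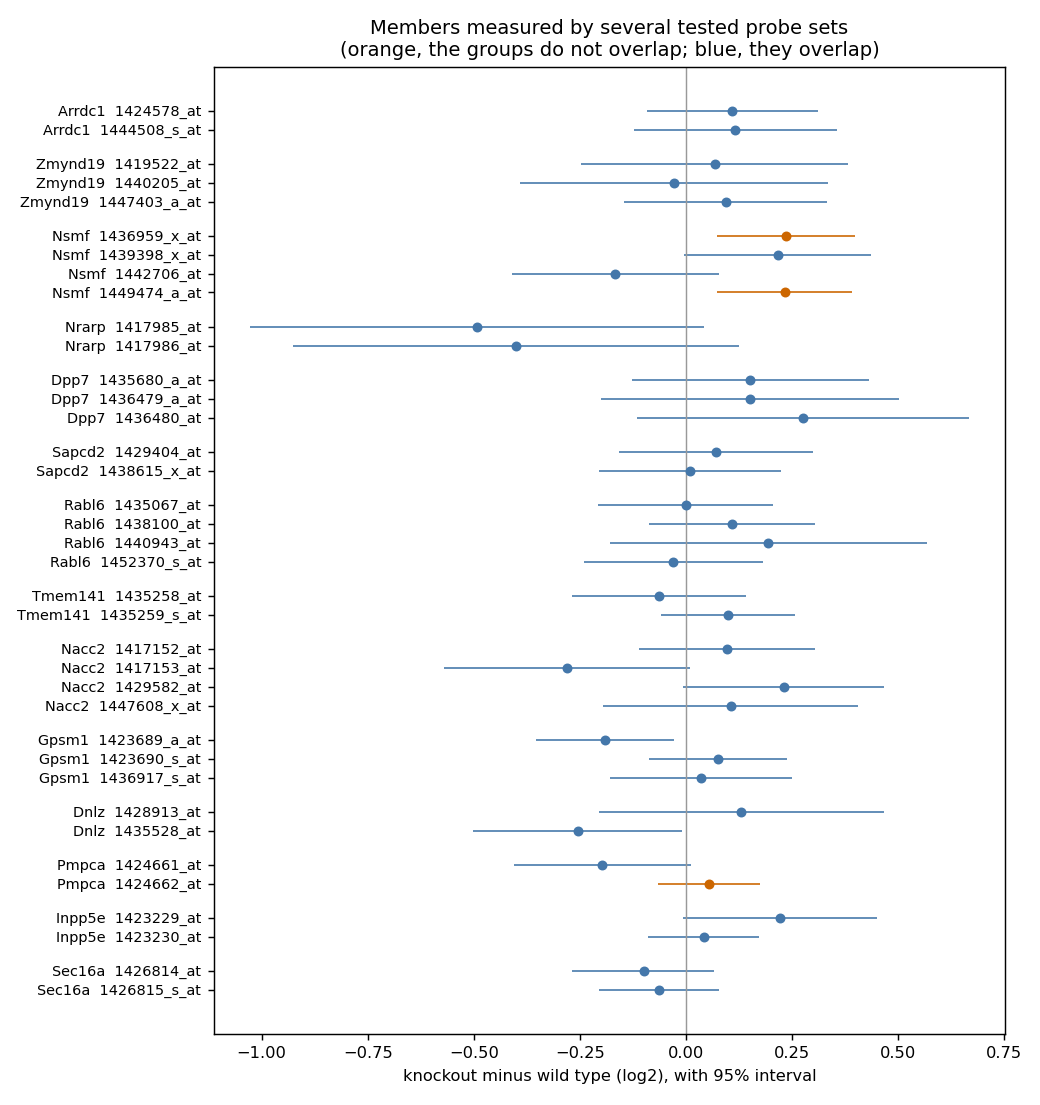
Change (knockout minus wild type, log2) with its 95% interval for each tested probe set of the 14 members that have several, grouped by gene in chromosome order. The probe sets of Nsmf, Nacc2, Gpsm1, Dnlz and Pmpca stand on both sides of 0, and those of Nrarp both stand below it.

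The remaining members are given by role. In transcription and chromatin, 12 probe sets of 6 genes had a median of 0.081. Nrarp, a feedback inhibitor of Notch signalling that endothelium expresses, stood at -0.49 (interval -1.03 to 0.042) on 1417985_at, which read 8.34, 8.45, 7.84 and 9.14 in wild type and 7.79, 8.18, 8.22, 7.96 and 7.59 in knockout. The groups overlap, with wild type replicate 4 inside the knockout range and the other wild type arrays above it. The mean endothelial marker level on the same arrays was 9.24, 9.01, 8.82 and 9.41 in wild type and 8.57, 8.77, 8.91, 8.75 and 8.90 in knockout. Wild type replicate 5 was highest in both, and wild type replicate 4 was the lowest wild type array in both. Knockout replicate 3 was the highest knockout array in both. Knockout replicate 5, lowest for Nrarp, was near the top of the knockout arrays for the markers. The part of the markers in the Nrarp values was not tested. The second Nrarp probe set stood at -0.40. Nelfb, a subunit of the complex that holds RNA polymerase II near start sites, stood at 0.16, Ehmt1, a histone H3 lysine methyltransferase, at 0.011, and the 3 probe sets of Zmynd19 between -0.029 and 0.094. Both probe sets of Lhx3, a LIM homeobox factor of the pituitary, lay under 4 on most arrays and were not tested.

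Among ubiquitin and signal adaptors, 5 of 5 probe sets lay above 0, between 0.019 and 0.14, where 52.7% of all tested did. Of the 5, 0 had an unadjusted p under 0.05, against 18.9% of all. They were those of Fbxw5, Traf2, Arrdc1, an arrestin-like adaptor with 2 of them, and Anapc2, the cullin subunit of the anaphase promoting complex. Anapc2 read 10.97, 10.84, 10.89 and 10.88 in wild type and 11.01, 10.95, 10.98, 11.04 and 11.16 in knockout, a change of 0.14 (adjusted p 0.288, limma) with 1 knockout array inside the wild type range. The 8 probe sets for the secretory pathway and proteases had a median of 0.21, with Dpp7, a lysosomal dipeptidyl peptidase, between 0.15 and 0.28 and Sec16a, which organises endoplasmic reticulum exit sites, at -0.10 and -0.064. Of these 8, 2 had an unadjusted p under 0.05 (Mamdc4 and Qsox2), where the share of all tested probe sets was 18.9%.

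In lipid metabolism, Agpat2, the acyltransferase that makes phosphatidic acid in adipocytes, read 12.12, 11.72, 11.15 and 11.31 in wild type and 11.40, 11.83, 11.81, 11.46 and 11.17 in knockout, a change of -0.042 (interval -0.52 to 0.43). Its spread within a genotype was larger than the difference between them. Pnpla7, a lysophospholipase, stood at 0.097. Of the glycan and nucleotide enzymes, Man1b1, a mannosidase of the endoplasmic reticulum, stood at -0.049 and Uap1l1, a relative of the UDP-N-acetylglucosamine pyrophosphorylase, at 0.19. Ssna1, Tprn, Sapcd2 and Gpsm1, grouped as centrosome, cilium and polarity genes apart from Inpp5e, which was grouped with lipid metabolism, stood between -0.19 and 0.17. Ssna1, a microtubule nucleating protein of the centrosome, stood at 0.17, Tprn, the stereocilium protein taperin, at 0.068 and the spindle orientation gene Sapcd2 at 0.071 and 0.009. Phpt1, a histidine phosphatase, stood at 0.14, Ccdc183 at -0.23, Tmem141 at -0.064 and 0.098, and the 4 probe sets of Rabl6, a RAB-like GTPase gene, between -0.030 and 0.19. The untested probe sets, 7 in all, belong to Arrdc1, Lhx3, Rabl6, Sapcd2, Snapc4 and Uap1l1, and Lhx3 alone had no tested one.

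Across arrays, the median of the 62 member probe sets relative to their wild type means was 0.060, -0.046, 0.002 and -0.019 in wild type and 0.039, 0.095, 0.069, 0.058 and 0.056 in knockout. Wild type replicate 1 therefore lay within the knockout range. Over all tested probe sets the same medians ran from -0.049 to 0.027 in wild type and from 0.008 to 0.016 in knockout. The knockout medians of the members lie above those of all probe sets on each of the 5 arrays, and so do those of wild type replicates 1 and 3. The typical deviation was largest on knockout replicate 5, 0.25 among the members and 0.20 among all tested probe sets.

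**Figure D5:**
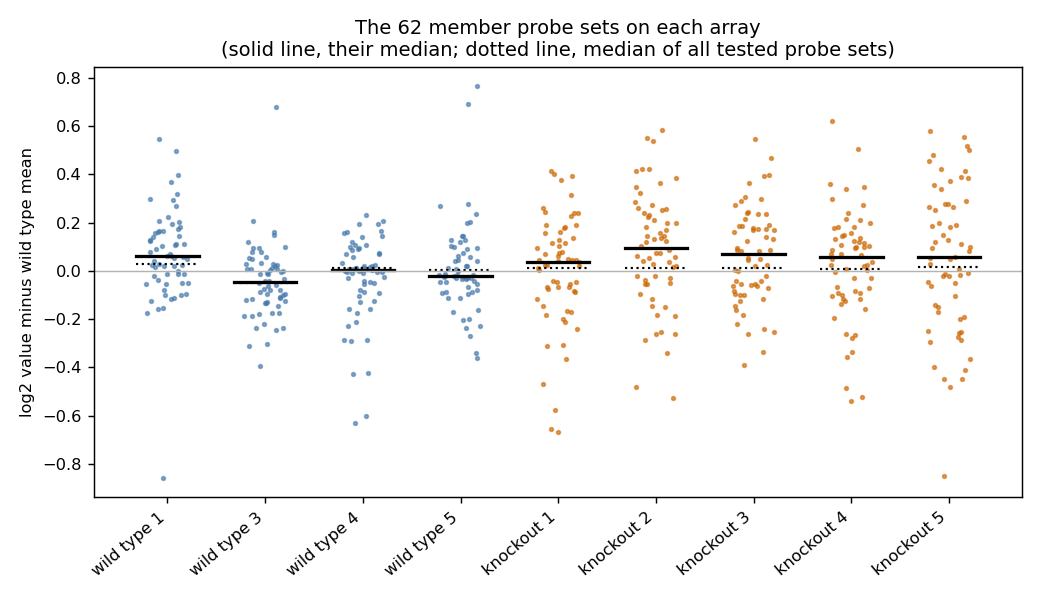
Log2 value minus wild type mean of the 62 member probe sets (points) on each array, with their median (solid line) and the median of all 26504 tested probe sets (dotted line). Member medians run from 0.039 to 0.095 on the knockout arrays and from -0.046 to 0.060 on the wild type arrays, where replicate 1 is highest.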

How the data were processed

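Total RNA from 9 aorta samples was measured on 1-colour Affymetrix arrays. The authors deposited 1 value per probe set. The submitters' processing notes name GCRMA, a background correction and normalization method for such arrays; its version and a genome build are not given in the sources used here. The range of the deposited values, 1.75 to 14.81, led to their being taken as log2. No values were rescaled. Of 45101 probe sets, 34945 carry 1 symbol in the platform annotation, 932 several and 9160 none, apart from 64 controls.

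The test took probe sets of 1 symbol with a log2 signal above 4 on 4 or more arrays. limma 3.58.1 (R 4.3.3; lmFit, eBayes, no covariate) fitted wild type and knockout over these 26504, and p was adjusted by Benjamini-Hochberg (threshold 0.05). A change is the knockout mean minus the wild type mean. For single probe sets an exact permutation test (two-sided) ran through all 126 splits. The replicates are called biological in the labels, and the number of arrays limits their precision. The fit was tested on simulated data. Alternatives were renewed quantile normalization, centring of arrays on their median, a filter at 6 or none, 1 value per gene, a trended and robust prior, array weights, an adipocyte marker covariate, the replicate number as a block, each array left out and an adjusted p of 0.10. Gene order came from GRCm38.p6 and no coordinates of the probe sets were used; 23 other tested genes lie between the outermost members.

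Array values are given for the 12 members with the smallest p, the 5 nearest tested members on each side and members with probe sets of opposite sign of which at least 1 had an unadjusted p under 0.05; other members with array values (Nrarp, Anapc2, Agpat2) were chosen after their values were seen. The members and lists were chosen with earlier results of these data known.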

Additional observations from a re-analysis of the deposited data

Results flagged for a closer look

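In 10 of 124 groups (62 probe sets, 2 genotypes) 1 array stood far from the rest by Dixon's criterion, which chance alone meets in about 1 of 20 groups. On knockout replicate 5, Arrdc1 (1444508_s_at) read 8.12 where the other knockout arrays read 7.61 to 7.73, Sapcd2 (1438615_x_at) read 7.09 against 6.76 to 6.81, and Nacc2 (1447608_x_at) read 7.50 against 6.78 to 6.97. On knockout replicate 2, Traf2 read 6.41 against 6.03 to 6.10 and Pmpca (1424662_at) 11.46 against 11.35 to 11.38. On knockout replicate 4, Npdc1 read 9.85 against 9.71 to 9.74 and Sec16a (1426815_s_at) 11.18 against 11.29 to 11.32. In wild type, Clic3 read 5.19 on replicate 3 against 4.98 on the others, Dnlz (1435528_at) 7.86 on replicate 1 against 7.46 to 7.49, and Inpp5e (1423230_at) 11.31 on replicate 5 against 11.40 to 11.41.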

How the results depend on the processing

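The count of 0 member probe sets past the threshold became 1 with array weights, 1 at an adjusted p of 0.10 (Snapc4 both times), and ran from 0 to 3 when any 1 array was left out. The 3, Snapc4, Mamdc4 and Tor4a, appeared without wild type replicate 1, where 6.31% of all probe sets passed. The count whose groups do not overlap was 5 of 39 genes when probe sets were averaged (6.58% of all genes). It was 7 of 39 with the brightest probe set of each gene (6.76% of all genes) and 8 of 52 probe sets with a filter at 6 (7.89% of all). It was 8 to 14 without any 1 array. The 14 were without wild type replicate 1, where 18.4% of all did not overlap, and the share of all was 7.64% to 10.3% without any other array. The median was 0.044 when probe sets were averaged. Of 19 members named by rule, 12 were chosen for the smallest p in these data, which favours a stable sign. A changed filter or prior leaves the change of a probe set as it is and cannot turn its sign. Of the 19, 14 kept their sign in every alternative in which they were tested. The others had changes near 0: with array medians set to 0 Abca2 stood at 0.003, Fut7 at 0.005, Entpd2 at 0.004 and Clic3 at 0.010, the last also after renewed quantile normalization (0.010). With array weights Abca2 stood at 0.074 and Entpd2 at 0.018. Without any 1 array the ranges were -0.031 to 0.060 for Fbxw5, -0.097 to 0.035 for Abca2, -0.058 to 0.032 for Fut7, -0.158 to 0.074 for Entpd2 and -0.105 to 0.061 for Clic3. The cause was not tested. Deviations of same-numbered arrays from their group means correlated at -0.27 (1), -0.11 (3), 0.07 (4) and 0.15 (5). Differently numbered arrays were not compared, so these values cannot decide whether the replicate numbers pair the arrays. With the replicate number as a block, in which knockout replicate 2 has no partner, 0 member probe sets passed and the median was 0.057, while 1 probe set passed in all against 21. Over all tested probe sets the count was 367 with array weights, 66 with a trended and robust prior, 6 with the adipocyte covariate, 8 with the brightest and 10 with the mean of a gene's probe sets, and 6 to 1673 without any 1 array. Clic3, Lcn12 and Fut7 lie near the filter's limit.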

Other observations

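Between the outermost members lie 23 further tested genes, measured by 40 probe sets, of which 0 passed an adjusted p of 0.05 (limma) and 7 had an unadjusted p under 0.05 (17.5%, against 18.9% of all). Their median change was 0.044, and in 38 of 40 the 95% interval lay inside a 2-fold difference. Of these 40, 3 had groups that do not overlap (7.5%, against 6.42% of all tested). These 3, of which 2 measure Notch1, were lower in the knockout, as were 2.62% of all. Both probe sets of Notch1, a receptor of endothelium and smooth muscle, stood lower, at -0.36 (SE 0.11; adjusted p 0.154, limma) on 1418633_at and -0.26 (SE 0.096; adjusted p 0.194) on 1418634_at. Endothelial markers had a mean change of -0.34. The 4 probe sets of Egfl7, a secreted endothelial protein gene next to Notch1 in the tested order and not among the markers, stood between 0.019 and 0.051. The 2 probe sets of the member Nrarp, which endothelium also expresses, stood at -0.49 and -0.40. The part of the markers in the Notch1 values was not tested. Paxx, a factor of DNA end joining that lies 2 tested genes from Ptgds, stood at -0.32 (SE 0.12; adjusted p 0.214, limma) on 1455596_a_at, with knockout and wild type apart, and at 0.12 on 1442351_a_at. Camsap1, which binds microtubule minus ends, stood at 0.49, 0.25 and 0.22 on 3 probe sets (adjusted p 0.157, 0.195 and 0.245, limma) and at -0.044 on the fourth, whose level was near 4. The lipocalin genes Lcn8, Lcn9 and Lcn11 stood at 0.093, 0.040 and 0.033, all at mean levels between 4.05 and 5.19. These genes were chosen after their values were seen.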
